A study of Arabidopsis thaliana with 3 samples.

Results

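The LCR genes of Arabidopsis thaliana, whose name stands for low-molecular-weight cysteine-rich, encode small secreted peptides held in shape by disulfide bridges. They were taken here as every gene whose symbol is LCR followed by a number and for which a probe set annotated to exactly 1 gene was present. This gave 8 genes, with 8 of the 13513 probe sets that name a single gene: LCR24, LCR59, LCR66, LCR67, LCR68, LCR69, LCR72 and LCR80. The TAIR10.1 gene table holds 81 genes with an LCR number as their symbol, and the other 73 were not analysed here. A gene is called measured below if a probe set was annotated to it alone. Of all 22746 probe sets, 8730 carried no gene name and 503 carried several. A gene that was not measured in this sense can therefore still have a probe set on the array. Where a gene had several probe sets, the one with the highest mean over the arrays was to be used, but none of the 8 genes had more than 1, so the genes were in effect chosen by symbol and not by level. The family itself was proposed with the results of these arrays known, so the differences below describe its members and are not independent evidence about the family.

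Transcripts were measured in shoots of 10-day-old plants grown in constant light at 22 °C. There were 2 arrays of the Col wild type and 1 array of the flp-1/myb88 double mutant, which carries mutations in FLP and MYB88, a pair of MYB transcription factors that end the divisions of the stomatal lineage. The labels name the flp-1 allele, give no allele number for myb88, and do not say if the Col arrays are of different plants, so their spread may be technical. With 1 mutant array there was no replicate of the mutant, and precision is limited by the small number of arrays. The comparison asks which transcripts differ in the mutant.

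Defensins, the best known relatives of the LCR peptides, are antimicrobial proteins that act on the membranes of fungi, and many are secreted from outer cell layers. Other cysteine-rich peptides of plants are signals between cells, among them the pollen coat peptides by which a stigma recognises pollen and the peptides that set the spacing of stomata. Of the 8 LCR genes, 5 also carry a plant defensin name in the gene table: LCR67 is PDF1.1, LCR69 is PDF2.2, LCR68 is PDF2.3, LCR66 is PDF2.4 and LCR72 is PDF2.6. LCR24, LCR59 and LCR80 carry no such name there.

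Of 18 leaf markers, 4 were measured, RCA, LHCB4.1, PSAN and PSAE-1, and their log2 intensities ran from 10.05 to 11.78, high on each of the 3 shoot arrays, with summed linear intensities of 8774 and 7158 for Col against 10137. The mutant array stood apart from both Col arrays in its controls. The signal near the 3′ end of a control transcript exceeded that near its 5′ end by more in the mutant in each of 6 control pairs, for example by 5.15 log2 where Col had 3.45 and 3.17 (second actin pair). The 27 poly-A controls of bacterial origin, whose values are low, were all higher there too, and their median log2 was 3.473 where the Col medians were 3.097 and 3.045. Both shifts move with every difference below, and their part in these differences was not tested. Over all 22746 probe sets, limma called 26.3% (Benjamini-Hochberg adjusted p under 0.05), made up of 11.9% higher and 14.4% lower in flp-1/myb88. After median centring of the arrays the share of lower calls among all calls went from 54.9% to 44.8%, and the median difference of all probe sets from 0.10 to 0.21 log2.

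In the mutant, 4 of the 8 LCR genes were lower and none was higher by limma, and the other 4 did not pass the threshold. The genes that fell were LCR24, LCR59, LCR67 and LCR80, which lay between percentiles 23.8 and 61.1 of the Col arrays. The most abundant signals of the family, LCR69 and LCR68, did not pass, and neither did LCR72 and LCR66, whose signals were at the bottom of the range. The share of all probe sets called lower was 14.4%, and because the genes were chosen with this comparison known, nothing is read from the 4 of 8 against it. The median difference of the 8 genes was -0.63 log2, where that of all probe sets was 0.10. By position, 7 of the 8 mutant values were outside both Col values, against 86.7% of all probe sets. Of these, 5 were below both Col values and 2 above both, where 37.4% and 49.2% of all probe sets were. The mutant was at least 1 log2 unit below both Col arrays at 3 LCR genes, LCR24, LCR59 and LCR67, and at 9.67% of all probe sets. A difference between any of the 8 genes in their response was not tested. In whole shoots, fewer cells of a type and less RNA per cell cannot be told apart.

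**Figure D1:**
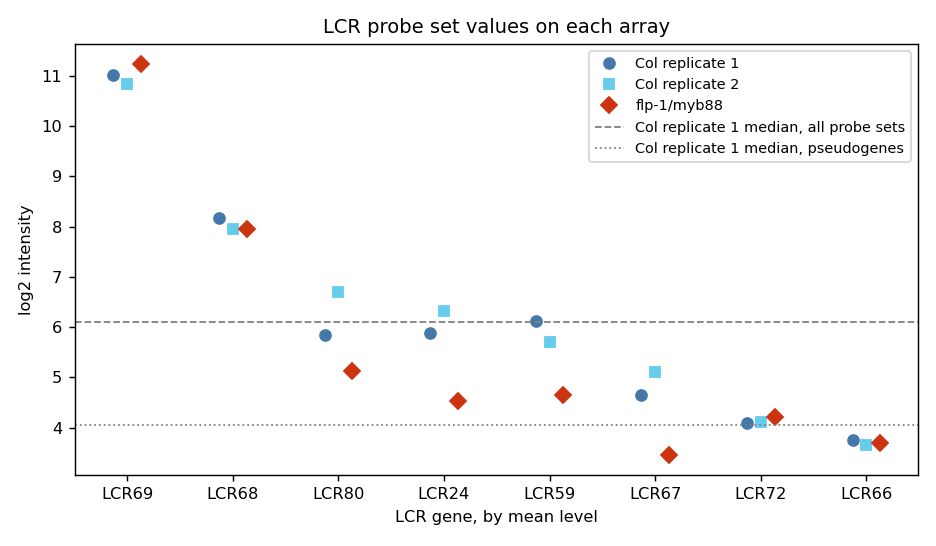
Log2 intensity (vertical axis) of the probe set of each LCR gene (horizontal axis, ordered by mean level) on Col replicate 1 (circles), Col replicate 2 (squares) and the flp-1/myb88 array (diamonds), with the Col replicate 1 medians of all probe sets (dashed) and of pseudogenes (dotted). The diamond lies below both Col points for LCR80, LCR24, LCR59 and LCR67, and close to them for LCR68, LCR72 and LCR66.

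LCR24 (AT4G29285), whose mutant value was the furthest from its nearer Col value, lies in a row of related genes, with 6 of its 10 nearest neighbours, 5 on each side, also LCR genes: LCR21, LCR22, LCR23, LCR25, LCR26 and LCR27. None of these 10 neighbours was measured. Its log2 intensity was 5.88 on Col replicate 1, 6.32 on Col replicate 2 and 4.53 on the flp-1/myb88 array. In linear intensity these were 58.7, 80.0 and 23.1, which put the gene at percentiles 45.6 and 53.9 of the Col arrays and at percentile 24.6 of the mutant array. The mutant value was 1.35 log2 below the nearer Col value, where the Col arrays were 0.45 apart. The difference from the Col mean was -1.57 ± 0.32 log2 (SE), or 2.97-fold lower (limma adjusted p = 0.00393). LCR24 was also called after cyclic loess (limma adjusted p = 0.00342), median centring (limma adjusted p = 0.0119) and quantile normalization (limma adjusted p = 0.0257), and with 16 added to each intensity (limma adjusted p = 0.0470).

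LCR67 (PDF1.1, AT1G75830), a defensin known chiefly from seeds, had the lowest mutant value of the 8 genes. Its log2 intensity was 4.66 and 5.11 on the Col arrays against 3.46 in flp-1/myb88, and its linear intensity was 25.3 and 34.5 against 10.97. The Col values lay at percentiles 23.8 and 30.9 of their arrays and the mutant value at percentile 3.35, level with the median of the bacterial poly-A controls on that array. The difference was -1.43 ± 0.32 log2, or 2.69-fold lower (limma adjusted p = 0.00663). This and the difference of LCR24 are within 1 standard error of each other, so their order is not established. Because the mutant value sits at the level of controls that measure no plant transcript, the size of this fall is uncertain. With 16 added to each intensity the difference was -0.76 and the call was lost (limma adjusted p = 0.0755).

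LCR59 (AT4G30070) is also a gene of a cluster, with LCR61 and LCR63 directly before it in the gene table and LCR19 the second gene after it, and none of these was measured. Its log2 intensity was 6.13 and 5.71 for Col against 4.66 for flp-1/myb88, or 70.1, 52.2 and 25.3 in linear intensity. Here Col replicate 1 was the higher Col array, whereas Col replicate 2 was the higher at LCR24, LCR67 and LCR80. The mutant value was below both. LCR59 differed by -1.26 ± 0.31 log2, or 2.39-fold lower (limma adjusted p = 0.0120). The call was lost after quantile normalization, at -1.08 (limma adjusted p = 0.0530), and with 16 added to each intensity, at -0.89 (limma adjusted p = 0.0621).

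LCR80 (AT5G38330) is the member whose size depends most on the Col array used. Its log2 intensity was 5.83 and 6.70 for Col against 5.12 for flp-1/myb88, or 57.1, 104 and 34.8 in linear intensity. The gap of 0.87 log2 between the Col arrays is wider than that of 96.5% of all probe sets. The difference of the mutant was -0.71 log2 from the lower Col array and -1.58 from the higher one. The fitted difference was -1.15 ± 0.36 log2, or 2.21-fold lower (limma adjusted p = 0.0344). That call was lost after median centring (limma adjusted p = 0.0641), quantile normalization (limma adjusted p = 0.117) and with 16 added to each intensity (limma adjusted p = 0.129).

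**Figure D2:**
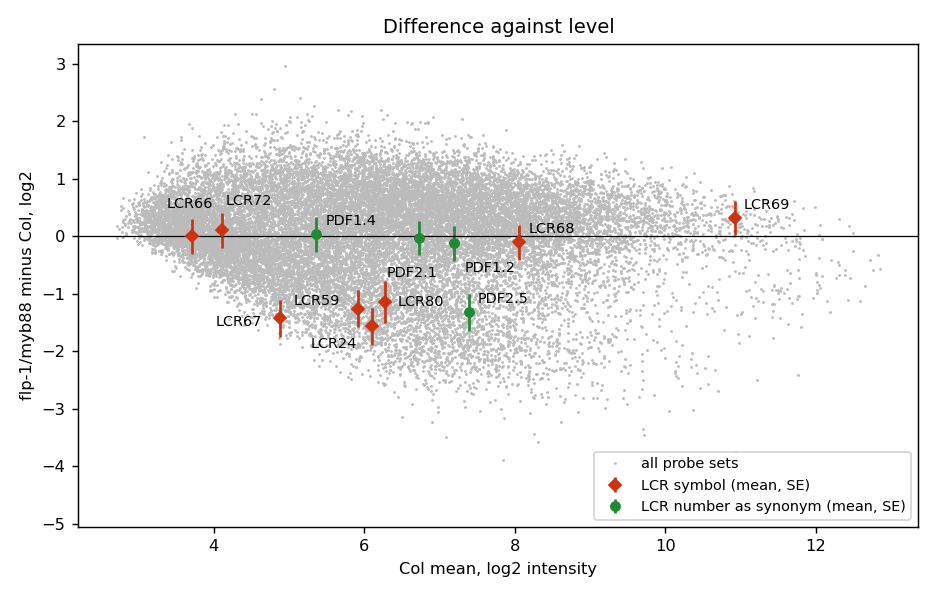
Difference of flp-1/myb88 from the Col mean (vertical axis, log2) against the Col mean (horizontal axis, log2 intensity) for all probe sets (grey), the 8 LCR genes (diamonds) and 4 genes that have an LCR number as a synonym (circles), with bars of 1 standard error from limma. LCR67, LCR59, LCR24, LCR80 and PDF2.5 lie between -1.15 and -1.57, and the others lie within 0.32 of 0.

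The defensins with the strongest signals did not pass the threshold. LCR69 (PDF2.2, AT2G02100), of a defensin class found in leaves without infection, gave one of the brightest signals of the arrays, at percentile 99.2, 99.1 and 99.5. Its log2 intensity was 11.01 and 10.84 for Col against 11.24 for flp-1/myb88, or 2056, 1828 and 2415 in linear intensity. The mutant value was above both Col values, and the difference was 0.32 ± 0.30 log2 (limma adjusted p = 0.466). LCR68 (PDF2.3, AT2G02130) had log2 intensities of 8.17 and 7.95 for Col against 7.95 for flp-1/myb88, so the mutant and Col replicate 2 share the same rounded value. Its difference was -0.11 ± 0.30 (limma adjusted p = 0.823). Over all probe sets the smallest difference that passed in this fit was 0.854 log2, so a smaller change of LCR69 or LCR68 would not have been called in it. That value is not a detection limit, since the standard error differs between probe sets.

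LCR72 (PDF2.6, AT2G02140) and LCR66 (PDF2.4, AT1G61070) gave low and nearly equal values on all 3 arrays. LCR72 had linear intensities of 17.2 and 17.4 for Col against 18.5 for flp-1/myb88, a log2 difference of 0.10 ± 0.30 (limma adjusted p = 0.838). LCR66 had log2 intensities of 3.76 and 3.66 for Col, and 3.71 in flp-1/myb88 lay between them (log2 difference -0.0045 ± 0.30, limma adjusted p = 0.993). The 989 probe sets of pseudogenes had Col medians of 4.06 and 3.99, with interquartile ranges from 3.44 to 5.45 and from 3.37 to 5.52. LCR72, LCR66 and LCR67 lay within or below these spans in Col, so none of the 3 genes was shown to be above background. The class includes pseudogenes annotated as transcribed, so these spans are only a rough guide to background. On the mutant array LCR24, LCR59 and LCR80 also lay within these Col spans, at percentiles 24.6, 26.9 and 34.9, where LCR67 was at 3.35. Their mutant values were not shown to be above background either, so the sizes of their falls are uncertain too.

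Probe sets were split by their Col mean into 4 classes of equal size, and the 4 LCR genes that fell were in classes 2 and 3. LCR67, with a Col mean of 4.89 log2, was near the bottom of class 2. In class 1, the lowest, with Col means up to 4.75 log2, 2.23% of probe sets were called lower, against 16.1% in class 2, 21.9% in class 3 and 17.4% in class 4. LCR66 and LCR72 were in class 1, LCR67, LCR59 and LCR24 in class 2, LCR80 in class 3, and LCR68 and LCR69 in class 4. Genes of different classes therefore met different backgrounds. Probe sets hybridize with different strength, so the order of the genes is one of signal and not of transcript number.

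LCR69, LCR68 and LCR72 stand close together on one chromosome, in a stretch that also holds PDF2.1, the pseudogene LCR71 and LCR73. None of the 4 measured genes of this stretch was called by limma, where 26.3% of all probe sets were. PDF2.1 (AT2G02120), which has LCR70 as a synonym and is the gene directly before LCR68, had log2 intensities of 6.71 and 6.76 for Col against 6.71 for flp-1/myb88. Its difference was -0.03 ± 0.30 log2 (limma adjusted p = 0.960). The 3 LCR genes of the stretch spanned linear intensities from 17.2 to 2415, and nothing is read from their lack of calls. Among the genes around LCR80, 5 of 10 were measured and 1 was called, AT5G38310, which was lower by limma at -1.61 ± 0.32 log2 (adjusted p = 0.00391). Around LCR59, 2 of 10 were measured and were called in opposite directions by limma, AT4G30050 at -1.48 (adjusted p = 0.00451) and AT4G30060 at 0.87 (adjusted p = 0.0476). Around LCR67, 4 of 10 were measured, and AT1G75810 was called higher by limma, at 1.55 (adjusted p = 0.00313). Among the 10 genes around LCR72, AT2G02170 was called higher by limma, at 1.03 (adjusted p = 0.0246), and no measured neighbour of LCR66, LCR68 or LCR69 was called. These neighbours were named after their values were seen. Nothing is read from their counts of calls, since 26.3% of all probe sets were called.

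Besides the 8 genes, 4 measured genes carry an LCR number as a synonym, and 1 of them fell, beside 14.4% of all probe sets. PDF2.5 (LCR74, AT5G63660), a defensin, had log2 intensities of 7.14 and 7.64 for Col against 6.07 for flp-1/myb88. It differed by -1.32 ± 0.32 log2, or 2.503-fold lower (limma adjusted p = 0.0103), a call lost with 16 added to each intensity (limma adjusted p = 0.0508). Its signal on each Col array was above that of each of the 4 LCR genes that fell, on the same array. PDF1.2 (LCR77), the defensin used as a marker of jasmonate and ethylene responses, differed by -0.13 ± 0.30 (limma adjusted p = 0.791), from 7.10 and 7.29 in Col to 7.07. PDF1.4 (LCR78) differed by 0.03 ± 0.30 (limma adjusted p = 0.952).

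**Figure D3:**
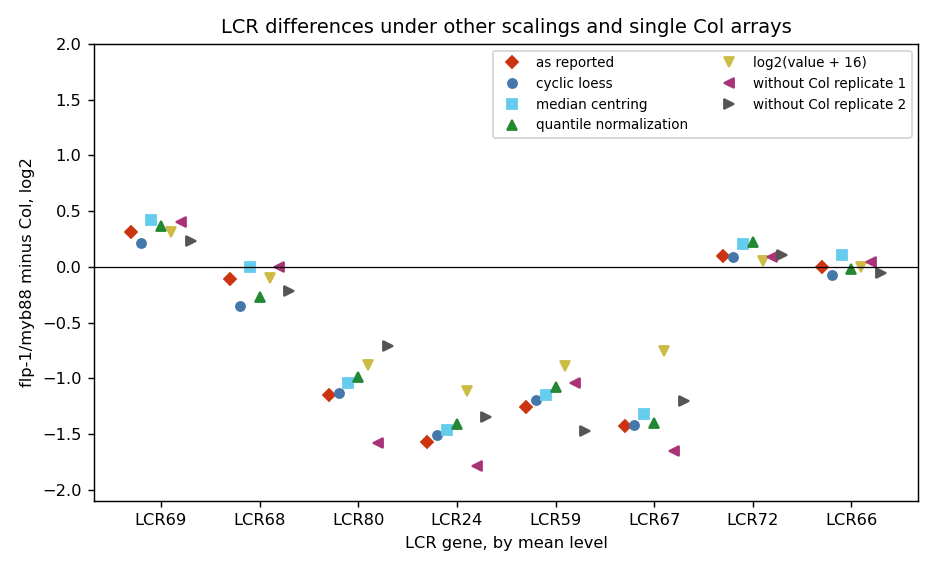
Difference of flp-1/myb88 from Col (vertical axis, log2) for each LCR gene (horizontal axis), as reported and under cyclic loess, median centring, quantile normalization, log2 of the intensity plus 16, and against a single Col array. The values of LCR24, LCR59, LCR67 and LCR80 are below 0 in each, from -1.79 to -0.71, and LCR66 takes both signs.

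Across the whole defensin list, 10 of 14 genes were measured, 5 of them LCR genes, and 2 were lower, LCR67 and PDF2.5, with none higher. Of all probe sets, 14.4% were lower and 11.9% higher by limma. The list median was -0.02 log2, beside 0.10 over all probe sets, and nothing is called particular to defensins from these values. PDF1.2b, a close relative of PDF1.2 whose probe set may share signal with it, differed by 0.12 ± 0.33 (limma adjusted p = 0.813), with its mutant value between the Col values.

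RALF peptides signal through receptor kinases at the cell surface and raise the pH outside the cell. Of 34 RALF genes, 10 were measured. By limma 4 of the 10 were lower and 3 were higher, where 14.4% and 11.9% of all probe sets were, and the other 3, RALFL26, RALFL31 and RALFL33, did not pass. The median difference of the 10 genes was -0.48 log2, and nothing is called particular to them from these counts. RALFL27 went from 7.23 and 7.52 in Col to 5.22, a difference of -2.16 ± 0.31 log2 (limma adjusted p = 0.000654). RALFL25 differed by -2.20 ± 0.34 (limma adjusted p = 0.000982) and RALFL28 by -2.01 ± 0.34 (limma adjusted p = 0.00147). RALFL24 was higher, from 5.66 and 5.56 to 6.82, at 1.21 ± 0.30 (limma adjusted p = 0.0112). The remaining calls, named after their values were seen, were RALFL18 at -1.43 (limma adjusted p = 0.00806), RALFL32 at 1.07 (limma adjusted p = 0.0224) and RALFL34 at 1.08 (limma adjusted p = 0.0222). The calls of RALFL32 and RALFL34 were lost after cyclic loess (limma adjusted p = 0.0599 and 0.0583) and after quantile normalization (limma adjusted p = 0.0724 for each), and that of RALFL18 with 16 added to each intensity (limma adjusted p = 0.0502).

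**Figure D4:**
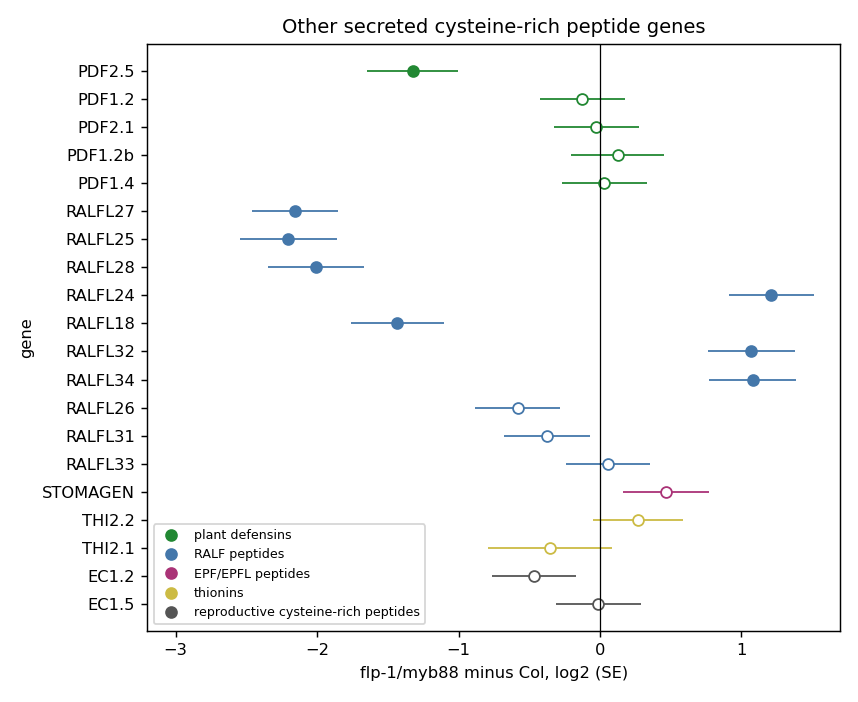
Difference of flp-1/myb88 from Col (horizontal axis, log2, with bars of 1 standard error from limma) for the measured cysteine-rich peptide genes other than the LCR genes (vertical axis), coloured by list, with filled points past the threshold. RALFL27, RALFL25, RALFL28, RALFL18 and PDF2.5 lie to the left and RALFL24, RALFL32 and RALFL34 to the right.

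In the remaining peptide lists no measured gene passed limma's threshold. STOMAGEN, which promotes stomata and was the 1 measured gene of 6 in its list, differed by 0.47 ± 0.30 log2 (limma adjusted p = 0.270). The thionins, small toxic peptides of plant defence, had 2 of 3 genes measured. THI2.1 differed by -0.35 ± 0.44, with Col arrays 1.35 apart (limma adjusted p = 0.587), and THI2.2 by 0.27 ± 0.32 (limma adjusted p = 0.568). EC1.2 and EC1.5, peptides secreted by the egg cell that activate sperm, were 2 of 14 genes in their list and differed by -0.47 (limma adjusted p = 0.268) and -0.01 (limma adjusted p = 0.980). Over the 20 measured cysteine-rich peptide genes that are not LCR members, 5 were lower and 3 higher by limma, beside 14.4% and 11.9% of all probe sets, with a median of -0.08 log2 beside 0.10. The lipid transfer protein, GASA and SCR-like lists had no measured gene and were not analysed here.

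Many LCR genes are known from flowers, pollen, seeds or roots, so markers of these were read on the same arrays. Of 26 flower, pollen and seed markers 2 were measured. MGH3, a histone H3 of the male gametes, fell by 2.33 log2, from 6.57 and 6.72 for Col to 4.32 (limma adjusted p = 0.000498). SHB1, a regulator of seed size, was at 3.55 and 3.99 for Col and at 3.83 for flp-1/myb88. The summed linear intensity of the pair was 107 and 121 for Col against 34.2 for flp-1/myb88. This fall came from MGH3, since the mutant value of SHB1 lay between its Col values. MGH3 is 1 gene of the 26 listed. Its mutant value lay within the Col spans of the pseudogenes, so the size of its fall is uncertain. As 14.4% of all probe sets were called lower, no link is read between its fall and those of LCR67 and the other LCR genes that fell. The part of flower, pollen or seed RNA in those falls was not tested. Of 16 root markers 3 were measured and none was called. PYK10 was at 11.66 and 11.61 for Col against 11.40 for flp-1/myb88. The summed linear intensity of the 3 was 3267 and 3141 for Col against 2727, while the root hair expansins EXPA7 and EXPA18 had signals from 3.28 to 4.54. Of 12 stomatal lineage and guard cell markers 5 were measured, with 1 higher and 1 lower by limma, beside 11.9% and 14.4% of all probe sets. MUTE, a regulator of the lineage, differed by 1.07 log2 (limma adjusted p = 0.0247) and AT4G14480, a guard cell kinase gene, by -0.98 (limma adjusted p = 0.0293), while STOMAGEN, SPCH and FAMA did not pass. Their summed linear intensity was 1859 and 2093 for Col against 2568 for flp-1/myb88. STOMAGEN alone made up most of this sum, at 1607 and 1828 for Col against 2369. Of the 5 genes, 3 were below both Col values and 2 above both. The part of these markers in the falls of LCR genes was not tested. No defining marker was at 0, since these processed intensities have no value of 0.

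Probe sets whose values on the 3 arrays were most like those of LCR69, by Euclidean distance of log2 values, were AT4G27090 at 0.102, AT4G22490 at 0.152 and AT2G23090 at 0.156. Those most like LCR24, the gene furthest from its nearer Col value, were AT2G14490 at 0.0975, AT5G41890 at 0.103 and AT1G33470 at 0.108. With 3 arrays this likeness is mostly one of level.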

How the data were processed

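The authors deposited 1 intensity per probe set and array, made with RMA per the submitters' processing notes; no source used here names its software. The values were read as linear from their range, 6.06 to 7618. RNA (25 ng) was amplified and labelled with biotin, per the labels. Log2 was taken with no pseudocount, 64 control probe sets were left out, and 22746 probe sets were fitted in limma 3.58.1 (R 4.3.3; lmFit and eBayes, two-sided, Benjamini-Hochberg, threshold 0.05). The spread came from the 2 Col arrays (1 residual degree of freedom), and the same spread was assumed for flp-1/myb88. On simulated data of 1 mutant against 2 Col arrays over 22746 probe sets with 200 changed, 27.5% of changes of 1 log2 and 79% of 2 log2 were recovered. Far fewer probe sets were changed there than were called here, and the simulated mutant array had the spread of Col and no shift. These rates are therefore not the recovery of the real comparison. Genes were named through the platform annotation, which can be old, and the TAIR10.1 gene table by gene ID, with 8 of 8 LCR genes matched. No coordinates are given, and peptide and probe sequences were not used here. There were 0 unused columns.

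The members and gene lists were chosen with earlier results of these data known. Named genes were all LCR members, up to 4 called genes per list (otherwise 2) by distance from the nearer Col array, and the 3 probe sets most like each of 2 members. RALFL18, RALFL26, RALFL31, RALFL32, RALFL33, RALFL34, PDF1.2, PDF1.2b, PDF1.4, PDF2.1, PSAN, PSAE-1, EXPA18, SHB1, the stomatal markers and the neighbouring genes fall outside this rule and were named after their values were seen. Alternatives were an eBayes trend, robust eBayes, a filter at the median level, cyclic loess, median centring, quantile normalization, 16 added before log2, the mean of a gene's probe sets, other fold limits and each Col array left out.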

Additional observations from a re-analysis of the deposited data

Results flagged for a closer look

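In control probe sets, left out of all comparisons, 2 signals of the mutant array exceeded those of each Col array. The 3′ minus 5′ log2 difference of the second actin pair was 5.147 in the mutant against 3.449 and 3.174 in Col. Of the 6 control pairs, this one had the widest gap from Col. The bacterial poly-A controls had a median log2 of 3.473 in the mutant against 3.097 and 3.045 in Col.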

How the results depend on the processing

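The 4 lower LCR calls became 2 after quantile normalization (LCR24 and LCR67) and 1 with 16 added to each intensity (LCR24). They became 0 under the filter at the median level, which left 2 of the 8 genes (LCR68 and LCR69) in the test, and 0 were at least 4-fold outside both Col arrays. The trend, robust and cyclic loess fits gave 4 and median centring 3. As each gene has 1 probe set, averaging probe sets changed nothing. The median difference of -0.63 log2 was -0.74 after cyclic loess, -0.52 after median centring and -0.43 with 16 added, and from -0.52 to -0.46 with 1 Col array left out. Under the other scalings 7 or 8 of the 8 mutant values were outside both Col values. With 1 Col array left out, 8 of 8 differed from the Col value kept, an outcome fixed in advance. LCR66 turned to 0.10 after median centring (limma adjusted p = 0.818). Over all probe sets the 5982 calls became 5766 after cyclic loess, 5958 after median centring, 4125 after quantile normalization and 2742 with 16 added. Without a test, 3366 probe sets were at least 2-fold and 313 at least 4-fold outside both Col arrays. Except where the filter removed the genes, the cause of these shifts was not tested. No paired analysis was possible because there is 1 mutant array, and its label carries no number that pairs it with a Col array. Signal over background was not measured, which limits the genes at low values.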
